A study of Caenorhabditis elegans with 2 samples.

Results

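The 107 genes described here encode proteins of the mitochondrial ribosome (71 genes, named mrpl or mrps) and of the respiratory chain (36 genes, named nuo, sdha, sdhb, sdhd, isp, ucr, cox or atp). They were chosen by gene name among the 19971 nuclear protein-coding genes of the Caenorhabditis elegans RefSeq annotation (WBcel235, the same assembly as ce11). The name rule uses no measured value, but it was set with earlier results of these data known. The data were lists of DNA regions bound by DAO-5, the worm relative of the nucleolar protein Nopp140, mapped by chromatin immunoprecipitation and sequencing with an antibody to GFP. All samples belonged to 1 group of 2 biological replicates: hermaphrodites of strain OP252 at the L4 larval or young adult stage, carrying a transgene for DAO-5 with GFP and FLAG at its C terminus, collected as whole animals, so that binding in fewer cells and weaker binding per cell cannot be told apart. Both replicates came from the same strain and carried the tagged protein, and an untagged strain was not analysed here. With a single condition there was no comparison between treatments: the questions were at which of these promoters peaks lay, whether ribosome and respiratory chain genes differed, and whether the replicates showed the same peaks.

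Mitochondria keep a small genome of their own, and the mitochondrial ribosome translates its few messages into core subunits of the respiratory chain. All proteins of that ribosome, and most subunits of the chain, are encoded in the nucleus and imported. Complexes I to IV pass electrons to oxygen and pump protons (complex II passes electrons only), and the ATP synthase uses the proton gradient to make ATP. In worms, lowered activity of several of these genes, among them isp-1, nuo-6 and mrps-5, is known for lengthening life.

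For each gene the promoter window ran from 1000 bp upstream to 200 bp downstream of the annotated start, and the strongest peak whose summit lay in the window was taken from each list. Many worm messages are trans-spliced, so an annotated start is often the splice site and not the place where transcription begins. Peak strength is the authors' signal value, which has no stated unit or scaling, so ranks within a list are given where lists are set side by side. The thresholded list was the shortest, with signals of 51.8 and above. The pooled list held 16687 peaks with signals of 16.4 and above, and the lists of replicate 1 and replicate 2 held 23091 and 21273. The longer lists were deposited as input to the reproducibility step, with weak peaks and background included, so a summit in them is a weaker statement than one in the thresholded list. Sequencing depth is unknown.

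The sequences at 6 summits are shown because, among members on II, III, IV, V and X whose sequence within 50 bp of the pooled summit held no annotated untranslated region, these had the highest pooled signals. Each runs 5′ to 3′ on the gene's own strand, centred on the pooled summit, from the RefSeq sequence of WBcel235 with ce11 coordinates. Capitals mark matches on either strand to the GA repeat GAGAGA, the B box core GTTCGA and the GC box GGGCGG.
mrps-21 (chrIV:4659468-4659568, minus strand): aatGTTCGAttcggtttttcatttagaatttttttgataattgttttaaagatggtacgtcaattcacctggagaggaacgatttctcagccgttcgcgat
cox-6A (chrIII:5080909-5081009, plus strand): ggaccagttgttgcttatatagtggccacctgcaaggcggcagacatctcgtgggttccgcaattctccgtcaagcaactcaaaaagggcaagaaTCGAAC
cox-5A (chrIII:12905186-12905286, plus strand): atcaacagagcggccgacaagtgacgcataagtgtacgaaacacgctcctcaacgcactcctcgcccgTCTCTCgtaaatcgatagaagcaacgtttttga
sdha-1 (chrX:8546175-8546275, minus strand): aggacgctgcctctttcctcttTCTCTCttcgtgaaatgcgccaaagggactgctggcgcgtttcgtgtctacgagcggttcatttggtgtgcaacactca
cox-6B (chrIII:2786048-2786148, plus strand): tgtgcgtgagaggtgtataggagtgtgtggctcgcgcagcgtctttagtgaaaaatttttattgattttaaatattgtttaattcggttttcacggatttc
mrps-18A (chrIII:8332285-8332385, minus strand): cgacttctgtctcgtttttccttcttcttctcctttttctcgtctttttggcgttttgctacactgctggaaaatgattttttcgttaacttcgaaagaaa
The summits of cox-5A and sdha-1 held the GA repeat, those of mrps-21 and cox-6A held the core of the B box, an element of tRNA promoters, and 0 of the 6 held the GC box. GC content was 51.5% at cox-6A, 50.5% at cox-5A and 53.5% at sdha-1, against 35.6% at mrps-21 and 37.6% at cox-6B and mrps-18A.

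Few of these promoters held a summit of the thresholded list. In the thresholded list, 1 of 71 ribosome genes and 1 of 36 respiratory chain genes had a summit, against a background of 1.22% of all nuclear protein-coding genes. The ribosome gene was mrpl-23, which encodes protein uL23m of the large subunit, and the respiratory chain gene was cox-5B, which encodes a subunit of cytochrome c oxidase. The gene mrpl-23 lies on chromosome I from 6211270 to 6211885 on the minus strand, and its peak had a pooled signal of 72.5, with 40.9 and 35.7 in the lists of replicates 1 and 2. Both replicates ranked it high, at 185 and 250. The summit, however, lay 945 bp upstream of the start, in an intron of the neighbouring gene fars-1 and within 200 bp of the snoRNA gene T08B2.13. No thresholded summit was left at a ribosome gene with a window of 500 bp upstream or without peaks near small RNA genes. The gene cox-5B lies on I from 9789009 to 9789851 on the plus strand, and its peak had a pooled signal of 71.8, with 29.0 and 40.7 in the lists of replicates 1 and 2. That summit lay between genes, 250 bp upstream of cox-5B, with no small RNA gene within 200 bp, and the replicate summits fell within 7 bp of it. A rank within the top of both replicate lists, where the top of a list holds as many peaks as the thresholded list, was reached by mrpl-23 and cox-5B alone among the members and by 0.591% of all genes.

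Several members came close to the threshold. The strongest of 3 pooled peaks of mrps-21, a small-subunit gene on IV, had a signal of 49.8 at a summit 1 bp upstream of the start. Replicate 1 had 22.04 at a summit 158 bp upstream, and replicate 2 had 26.4 at one 33 bp upstream. The gene F29B9.11 on the same strand ends 113 bp upstream of mrps-21. The peak of cox-6A, a cytochrome c oxidase subunit gene on III, had 48.0, with 19.1 in replicate 1 and 31.7 in replicate 2, and lay 767 bp upstream, within 200 bp of the snRNA gene F54D8.7. Both fell just under the lowest thresholded signal. A thresholded peak with a signal of 92.4 overlapped the window of the small-subunit gene mrps-28, but its summit lay 1043 bp upstream, outside the window.

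In the lists with weaker peaks, respiratory chain promoters more often held a summit than ribosome promoters, and both did so more often than genes in general. The pooled list had a summit at 27 of 71 ribosome genes (38.0%, exact 95% interval 26.8 to 50.3%) and at 23 of 36 respiratory chain genes (63.9%, interval 46.2 to 79.2%), against 23.7% of all nuclear protein-coding genes. The intervals of the classes overlap slightly. They cover counting error only and treat genes as independent, which neighbours that share a peak are not. In replicate 1 the counts were 29 ribosome genes (40.8%) and 22 respiratory chain genes (61.1%), against 28.5% of all genes. In replicate 2 they were 33 (46.5%) and 23 (63.9%), against 29.1%. Summits were in both replicate lists for 19 ribosome genes (26.8%) and 15 respiratory chain genes (41.7%), against 15.1% of all genes. The order was thus the same in each list, although the 2 replicates and the pooled list are not separate evidence, since the pooled reads came from both. No test was made of these differences, because genes are not replicates of a condition.

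**Figure D1:**
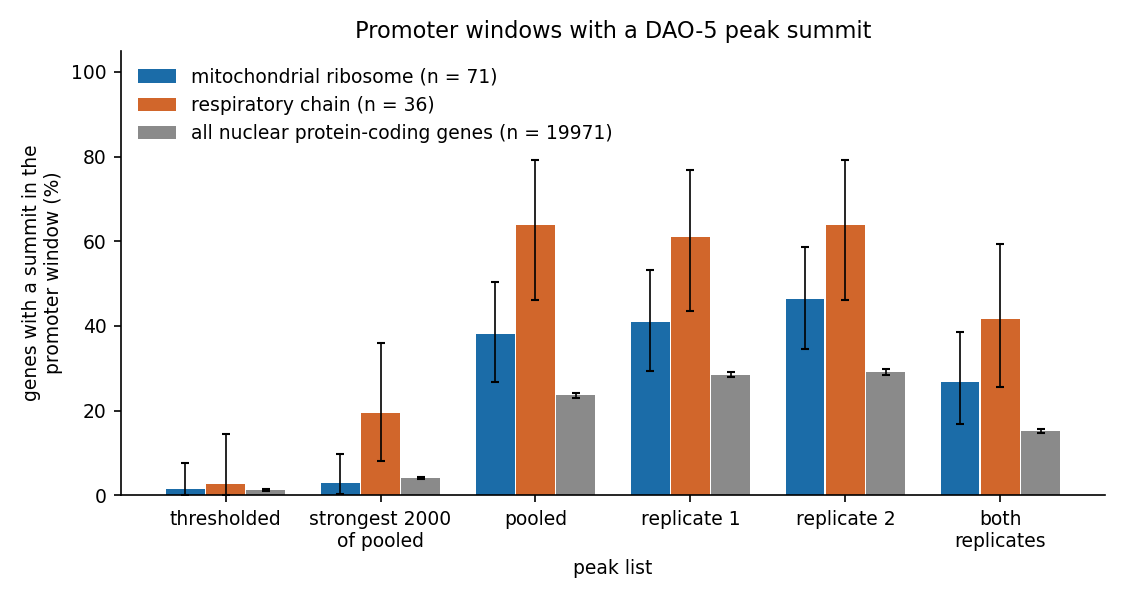
Percent of genes (y axis) with a summit in the promoter window in each peak list (x axis), for mitochondrial ribosome genes, respiratory chain genes and all nuclear protein-coding genes, with exact 95% intervals as error bars. Respiratory chain bars stand at 61.1 to 63.9% in the pooled and replicate lists, ribosome bars at 38.0 to 46.5% and all genes at 23.7 to 29.1%, while all bars are under 3% in the thresholded list.

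Peak strength overlapped widely between the classes, with pooled signals of 17.3 to 72.5 at ribosome genes and 17.3 to 71.8 at respiratory chain genes. The median was 22.3 for the 27 ribosome genes and 24.9 for the 23 respiratory chain genes, against 22.7 for all 4729 genes with one. Above a cut at the strongest 2000 pooled peaks, which was chosen after the values were seen, stood 2 ribosome genes (2.82%) and 7 respiratory chain genes (19.4%, exact interval 8.19 to 36.02%), against 4.13% of all genes. The 2 ribosome genes were mrpl-23 and mrps-21, and the 7 respiratory chain genes were cox-5B, cox-6A, atp-3, atp-4, cox-5A, sdha-1 and cox-6B. With peaks near small RNA genes left out, 1 ribosome gene and 5 respiratory chain genes remained above it, against 3.57% of all genes, as mrpl-23, cox-6A and sdha-1 dropped out.

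Complex IV, cytochrome c oxidase, passes electrons to oxygen, and its nuclear subunits held 4 of the 9 peaks of members within the strongest 2000. Of 7 subunit genes, 6 had a pooled summit, with a median signal of 39.7, and cox-5B, cox-6A, cox-5A and cox-6B were the 4. Over all nuclear protein-coding genes, 23.7% had a pooled summit and 4.13% were within the strongest 2000. The peak of cox-5A on III had a pooled signal of 41.7, with 25.3 in replicate 1 and 20.3 in replicate 2, at a summit 255 bp upstream that both replicates placed within 7 bp. The peak of cox-6B on III had a pooled signal of 37.7. Replicate 2 had 26.9 at almost the same position, and replicate 1 had 13.4 at a summit 76 bp inside the gene. The peak of cox-6C had 26.05 and that of cox-4 17.6, and cox-4 had no summit in either replicate list. The remaining subunit gene, cox-7C, had no summit in any list. The 8 genes for complex IV assembly, such as the copper chaperone gene cox-17 (20.5) and the haem enzyme gene cox-15 (21.5), had a pooled summit in 4 cases with a median of 21.04, and 0 were within the strongest 2000. The strongest of these was cox-14 (31.3), whose summit lay nearer to the start of rde-4 on the other strand than to its own. The genes cox-10 (8.42) and cox-16 (13.3) had a summit in replicate 1 alone, and cox-18 and cox-19 had none in any list. A protein-coding gene ended within 500 bp upstream on the same strand for 5 of 8 assembly genes and 0 of 7 subunit genes.

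ATP synthase genes followed. The peak of atp-3, for the subunit that joins the catalytic head to the stalk, had a pooled signal of 43.4, with 19.5 in replicate 1 and 19.9 in replicate 2. Its summit lay 123 bp upstream, between atp-3 and the divergent gene F27C1.2. The peak of atp-4, for coupling factor 6 of the same stalk, had a pooled signal of 43.0, with 20.3 in replicate 1 and 25.0 in replicate 2, and lay in an exon of alh-4, the gene that ends 95 bp upstream. The atp-3 peak stood in the strongest 9.29% of the replicate 1 list and the strongest 7.10% of the replicate 2 list, and the atp-4 peak in the strongest 8.01% and 3.34%. The stalk gene atp-5 had 24.7 in the pooled list and 24.0 in replicate 2 with no summit in replicate 1. Among the genes of the catalytic head, atp-1, for the alpha subunit, had 18.5 in the pooled list, below the median of 21.3 over all pooled peaks. In replicate 1 it had 15.9, above that list's median of 11.5, and in replicate 2 it had no summit. The gene atp-2, for the beta subunit, had 13.5 in replicate 1 and no summit in the pooled list or replicate 2.

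Among genes named by the rule, those of complexes I, II and III had mostly weaker peaks. Some genes of these complexes with other names had stronger ones. Of 10 such complex I genes, 5 had a pooled summit, against 23.7% of all genes. Their median was 23.2, with the highest signal at nduf-9 (71.7). The complex II gene mev-1 had 36.0 and the complex III gene cyc-1 had 32.7. Among 4 complex II genes, sdha-1, for the flavoprotein of succinate dehydrogenase on X, had a pooled signal of 39.6, while sdhb-1 (17.9) and sdhd-1 (17.3) were near the lower end of the list and sdha-2 had no summit in any list. The sdha-1 summit lay 204 bp upstream, within 200 bp of the snoRNA gene D2021.6. Complex III had a pooled summit at 3 of 6 genes: ucr-11 (31.6), ucr-2.3 (24.9) and isp-1 (21.4), which encodes the Rieske iron-sulfur protein. The ucr-11 summit lay in an exon of dad-1, and those of ucr-2.3 and isp-1 were nearer to the starts of T24C4.5 and islo-1 than to their own. Complex I, like complex III, had a pooled summit at 3 of 6 genes, against 23.7% of all genes: nuo-6 (26.6), nuo-4 (22.3) and nuo-5 (17.7). For nuo-6 the nearest start was that of tofu-5. The gene nuo-3 had no summit in any list. Of the genes without a pooled summit, nuo-2 had 8.78 in replicate 1 and 15.9 in replicate 2, nuo-1 had 8.89 in replicate 2, and ucr-1 had 9.37 in replicate 1. The core protein genes ucr-2.1 and ucr-2.2 had 12.7 and 14.04 in replicate 2 alone.

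**Figure D2:**
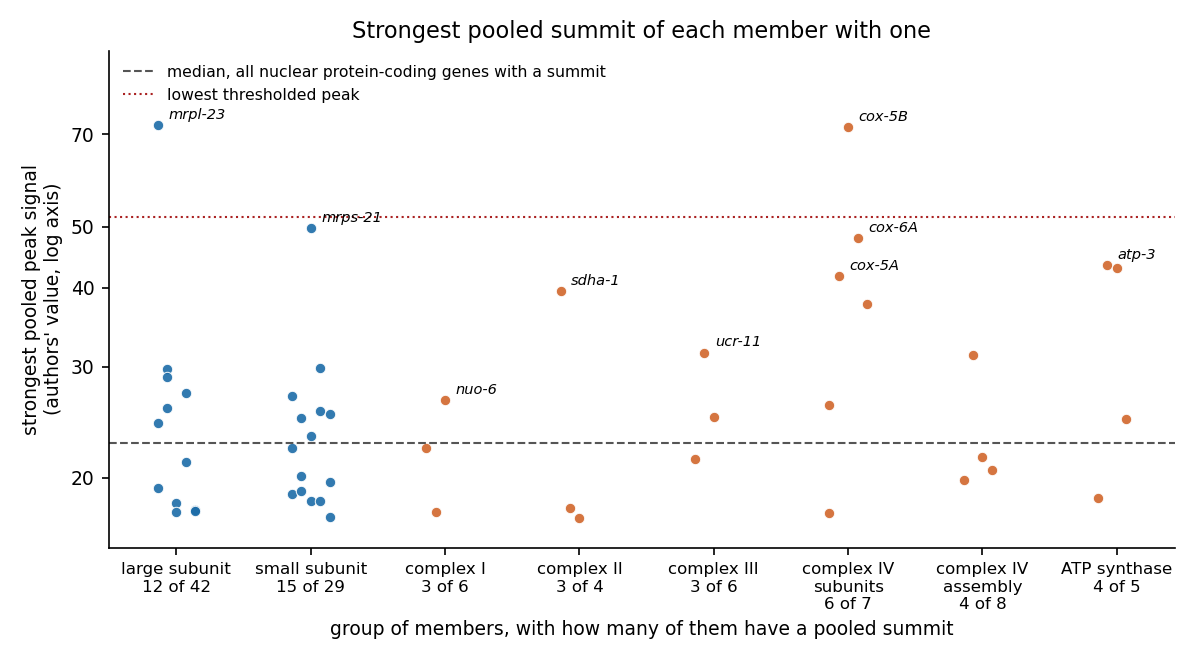
Signal of the strongest pooled summit (y axis, authors' value, log axis) for each member with one, by ribosomal subunit or respiratory complex (x axis); each point is 1 gene, the dashed line is the median over all genes with a summit (22.7) and the dotted line the lowest thresholded signal (51.8). Only mrpl-23 and cox-5B stand above the dotted line, and 5 of the next 7 points belong to complex IV subunits and ATP synthase.

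Within the ribosome, small-subunit promoters held a summit more often than large-subunit promoters. The counts were 15 of 29 (51.7%, exact interval 32.5 to 70.6%) for the small subunit and 12 of 42 (28.6%, interval 15.7 to 44.6%) for the large one, and the intervals overlap. The share over all genes was 23.7%, which lies within the interval of the large subunit and below that of the small one. The split follows the gene names, although mrps-18C is annotated as large-subunit protein uL3m. In replicate 1 the counts were 15 of 29 small-subunit genes (51.7%) and 14 of 42 large-subunit genes (33.3%), against 28.5% of all genes. In replicate 2 they were 16 (55.2%) and 17 (40.5%), against 29.1%. Median pooled signals differed little, at 22.3 for the small subunit and 22.8 for the large one. After mrpl-23 and mrps-21, the highest pooled signals were 29.8 for mrps-6 and mrpl-15, 28.9 for mrpl-50, 27.3 for mrpl-18, 26.9 for mrps-18A and 25.8 for mrpl-28. Several of these summits were nearer to another gene's start: rpn-8 for mrps-6, phka-1 for mrpl-18 and ZC262.2 for mrps-18A. The summit of mrpl-49 (24.4) lay in an exon of rpl-28, a cytosolic ribosomal protein gene on the other strand. The remaining pooled signals at ribosome genes were 17.3 to 25.5. The small-subunit gene mrps-17 (25.5) had a pooled summit 13 bp upstream, and the large-subunit gene mrpl-36 (21.2) had one 89 bp upstream. At both genes the summits in both replicate lists were also close to the start. The gene mrps-28 had 25.2 at a summit 117 bp upstream, nearer to the start of Y43F8C.7 on the other strand, and no summit in replicate 2. The gene mrps-5, one of those known from lifespan work, had 23.3 at a summit 95 bp inside its own exon, 14.1 in replicate 2 and no summit in replicate 1. Among ribosome genes without a pooled summit, the highest value was 18.6 for mrpl-37 in replicate 2, at a summit 997 bp upstream.

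No list had a summit for 26 ribosome genes (36.6%) and 5 respiratory chain genes (13.9%), against 56.9% of all genes. Of the 26, 19 belonged to the large subunit and 7 to the small one. Absence from these lists does not show that a promoter was unbound, since depth is unknown.

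Most summits lay within 500 bp upstream of the start in both classes. Of the pooled summits, 19 of 27 at ribosome genes (70.4%) and 17 of 23 at respiratory chain genes (73.9%) were within 500 bp upstream, against 51.8% for all genes with a summit. The median position was 148 bp upstream for ribosome genes and 250 bp upstream for respiratory chain genes, against 294 bp upstream for all genes. Within the ribosome it was 344 bp upstream for the large subunit, with 6 of 12 summits within 500 bp upstream, and 106 bp upstream for the small subunit, with 13 of 15. The member's own start was the nearest protein-coding start for 21 of 27 ribosome summits (77.8%) and 16 of 23 respiratory chain summits (69.6%), against 79.7% for all genes.

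**Figure D3:**
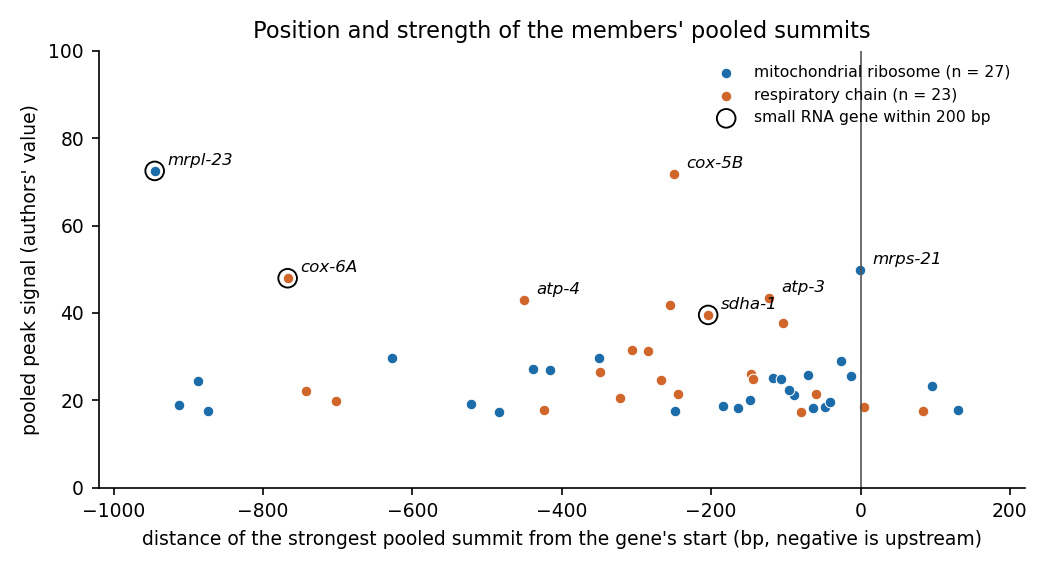
Pooled peak signal (y axis, authors' value) against the distance of the strongest pooled summit from the gene's start (x axis, bp, negative is upstream) for the 50 members with one; rings mark summits within 200 bp of a small RNA gene. Most points lie in the last 500 bp before the start, and of the strongest, mrpl-23 (945 bp upstream) and cox-6A (767 bp upstream) lie far from it and carry rings.

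The members sit close to other genes. A protein-coding gene ended within 500 bp upstream on the same strand for 30 of 71 ribosome genes (42.3%) and 13 of 36 respiratory chain genes (36.1%), against 18.04% of all genes. In worms such closely spaced genes are often transcribed together as an operon from a promoter before the first gene, but operon membership was not analysed here. A divergent start lay in the upstream part of the window for 26 ribosome genes (36.6%) and 19 respiratory chain genes (52.8%), against 17.5% of all genes. Pooled summits were about as frequent with a close upstream gene as without one: 11 of 30 against 16 of 41 for the ribosome, and 8 of 13 against 15 of 23 for the respiratory chain. For all genes the shares were 30.5% with and 22.2% without. In the window of the first gene of such a run, a pooled summit was found for 10 of the 30 ribosome genes and 4 of the 13 respiratory chain genes, against 29.9% of all genes in that position. Close spacing was thus more frequent among the members than among all genes, and its part in their higher shares was not tested.

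More members ranked within the top of the list, as defined above, in replicate 2 than in replicate 1. In replicate 2 they were mrpl-23, mrps-6, cox-5B, cox-6A and sdha-1, 5 of 107 members, against 1.19% of all genes. In replicate 1 they were mrpl-23 and cox-5B, 2 of 107, against 1.13% of all genes. Both of these were thus in the top of both lists, and over all genes 118 of the 226 genes of replicate 1 and of the 238 of replicate 2 were. With the strongest 2000 of each replicate, 2 ribosome genes (2.82%) and 3 respiratory chain genes (8.33%) were in both, against 1.84% of all genes. Over the 34 members with a summit in both lists, signals had a Spearman coefficient of 0.343, against 0.407 over the 3024 genes with a summit in both, as a description of genes that share libraries and depth. Within the classes it was 0.109 over 19 ribosome genes and 0.243 over 15 respiratory chain genes. The strongest summits of the 2 lists lay within 200 bp of each other for 12 of 19 ribosome genes (63.2%) and 7 of 15 respiratory chain genes (46.7%), against 61.3% of all such genes.

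Among the 34 members with a summit in both lists, the 4 with the largest ratios of signal in either direction were mrps-6, sdha-1, cox-6B and nuo-6. The scaling of the lists is not stated, and the median ratio of replicate 2 to replicate 1 was 1.16 over these members and 0.985 over the 3024 genes. By class the median ratio was 0.946 over 19 ribosome genes and 1.23 over 15 respiratory chain genes. For mrps-6 the signal was 10.2 in the list of replicate 1 against 28.6 in that of replicate 2, a ratio of 2.79, and the peak ranked 15406 in replicate 1 and 498 in replicate 2. For sdha-1 the values were 13.7 and 27.9, and for cox-6B 13.4 and 26.9, ratios of 2.03 and 2.00. The difference ran the other way at nuo-6, with 20.8 in replicate 1 and 10.9 in replicate 2, a ratio of 0.521, at ranks 1684 and 10859. At these genes the strongest summits of the 2 lists lay 170 to 303 bp apart, for sdha-1 at 474 bp upstream in replicate 1 and 206 bp upstream in replicate 2, so the ratios may not compare the same peak. Summits in 1 replicate list only were found for 24 ribosome genes (33.8%) and 15 respiratory chain genes (41.7%), against 27.3% of all genes. Of these, atp-5 ranked 811 in replicate 2 with no summit in replicate 1, and it has no ratio. The pooled summits of mrpl-38, mrps-11 and cox-4 had no counterpart in either replicate list. In contrast, mrpl-9, mrps-18B, mrps-18C and nuo-2 had a summit in both replicate lists and none in the pooled list.

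**Figure D4:**
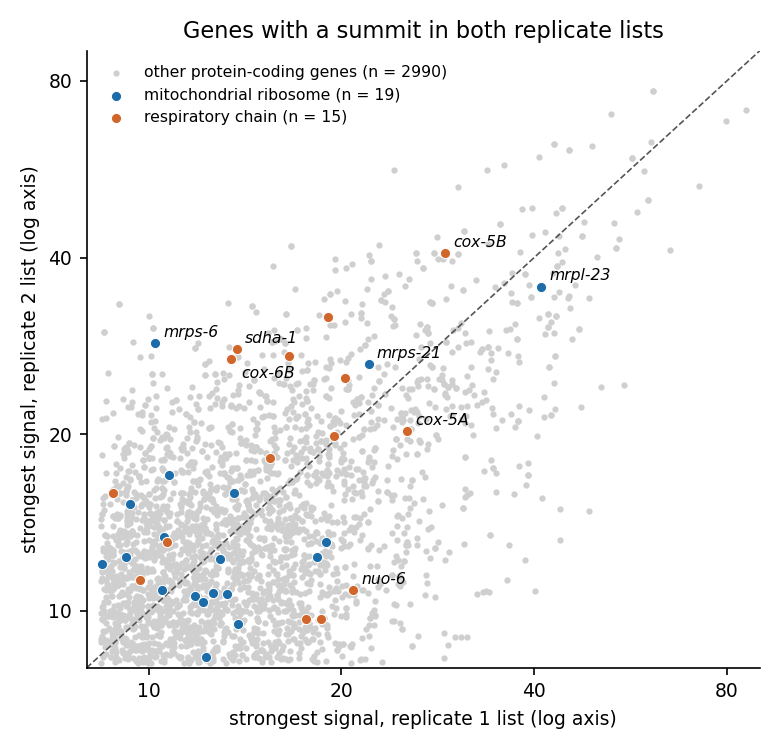
Strongest signal in the window in the replicate 2 list (y axis, log axis) against that in the replicate 1 list (x axis, log axis) for genes with a summit in both; grey points are other protein-coding genes and the dashed line marks equal values. The genes mrpl-23 and cox-5B are high in both lists, while mrps-6, sdha-1 and cox-6B stand well above the line and nuo-6 below it.

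Base composition at the summits was described without a test. Within 50 bp of the pooled summits, the median GC content was 37.6% at the 27 ribosome genes and 44.6% at the 23 respiratory chain genes, against 40.6% for all 4729 genes with a summit. Runs of AAAAAA (either strand) were present at 13 ribosome summits (48.1%) and 4 respiratory chain summits (17.4%), against 31.4% of all. The GA repeat GAGAGA was at 2 ribosome and 3 respiratory chain summits, against 12.2% of all, and GTTCGA at 1 of each, against 4.93%. The GC box GGGCGG was at 0 ribosome and 3 respiratory chain summits, against 5.58%. These counts are small, and a match to the letters is not evidence of a bound factor.

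Cytosolic ribosomal protein genes were the nearest class for comparison. Of 78 such genes, 9 had a thresholded summit (11.5%) and 56 a pooled one (71.8%), with a median pooled signal of 29.9. Mitochondrial ribosome genes thus had lower counts in each of these lists, at 1 of 71 and 27 of 71, and respiratory chain genes lay between the classes in the pooled list.

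A chosen list of respiratory chain, assembly, import, carrier and translation genes with names outside the rule, which is not complete, was grouped by role. Of 69 names 67 were in the annotation, and 35 of them had a pooled summit (52.2%) and 4 a thresholded one (5.97%). The shares over all nuclear protein-coding genes were 23.7% and 1.22%. The 4 were hsp-60, for the mitochondrial chaperonin (pooled signal 76.2, 43.2 in replicate 1 and 31.8 in replicate 2), nduf-9, for a complex I protein (71.7, 45.9 and 29.1), mai-1, for an inhibitor of the ATP synthase (62.5, 23.4 and 37.2), and cyc-2.1, for cytochrome c (55.3, 43.8 and 13.2). The nduf-9 summit lay within 200 bp of the microRNA gene mir-4936, and the hsp-60 summit was nearer to the start of Y22D7AL.10 than to its own. Summits lay 599 bp upstream for hsp-60, 660 bp for nduf-9, 790 bp for mai-1 and 224 bp for cyc-2.1. Only that of cyc-2.1 lay within a window of 500 bp upstream, which held a thresholded summit at 0.841% of all genes. The next highest was hsp-6, for the mitochondrial Hsp70 chaperone, at 41.3. Its summit lay 347 bp upstream, nearer to the start of C37H5.5 than to that of hsp-6. The complex II gene mev-1 had a pooled signal of 36.0, with 18.1 in replicate 1 and 17.1 in replicate 2. In the list of 9 genes for mitochondrial translation and genome upkeep, 4 had a pooled summit (44.4%, against 23.7% of all genes). Their median was 22.4, and none had a thresholded summit.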

How the data were processed

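The peak lists were deposited by the authors for genome build ce11: 1 per replicate, 1 from pooled reads and 1 thresholded on the irreproducible discovery rate, per the labels and the notes deposited with them, which name a control shared by both replicates. Each peak carries a signal value that the authors deposited, and its scaling, the aligner, the peak caller, the versions and the handling of reads that match several places are not given in the sources used here. Lists for ce10 were not used. All peak ends lay within the RefSeq chromosome lengths of WBcel235.

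Summits were taken from the offset in each list and assigned to promoter windows of nuclear protein-coding genes. Ranks are by falling signal over a whole list. Small RNA genes are those annotated as tRNA, snoRNA, snRNA, rRNA or miRNA genes. Shares have exact (Clopper-Pearson) 95% intervals. There were 2 replicates of 1 group, numbered by the labels, and no test was made. The members, lists and windows were chosen with earlier results of these data known. Genes named are those with a thresholded summit, the 8 highest pooled signals per class, those within the top of a replicate list (as many peaks as the thresholded list), the 4 largest replicate ratios, respiratory chain genes with no summit and the 5 highest of the pathway list; others were named after their values were seen. The window search was tested on simulated data, where it found 200 of 200 planted summits. Python 3.11.15, numpy 2.4.6, scipy 1.17.1 and matplotlib 3.10.9 were used.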

Additional observations from a re-analysis of the deposited data

How the results depend on the processing

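The share of promoters with a pooled summit was above that of all genes in each alternative. It ran from 29.6 to 47.9% for ribosome genes and from 44.4 to 69.4% for respiratory chain genes, against 16.99 to 29.1% for all genes. Respiratory chain genes had the higher share in each, but the gap was smallest with only summits nearest to the member's start. There 22 of 71 ribosome genes (31.0%) and 16 of 36 respiratory chain genes (44.4%) had a summit, against 19.3% of all genes. Without genes that have a close upstream gene, a setting chosen after seeing the data, the counts were 16 of 41 (39.0%) and 15 of 23 (65.2%), since fewer genes were counted. The thresholded count and the count in the top of both replicate lists each rest on 1 gene per class. For the ribosome each was 0 with the window from 500 bp upstream, without peaks near small RNA genes and without genes that have a close upstream gene, and each was 2 with peak overlap in place of the summit. Without a replicate, the top of the other list gave 1 to 2 ribosome and 1 to 3 respiratory chain genes, against 1.13 to 1.19% of all genes. With the strongest 2000 of each replicate, 2 ribosome and 3 respiratory chain genes were in both, against 1.84% of all genes, and with a stricter limit on rank, 0 respiratory chain genes (cox-5B ranked 537 in replicate 1). The median pooled signal of ribosome genes was 21.7 with peak overlap, 19.9 with only summits nearest to the member's start, 21.7 without peaks near small RNA genes and 24.6 without genes that have a close upstream gene; for respiratory chain genes it was 28.8 with only summits nearest to the member's start. In the replicate lists, whose scale is lower, the medians were 11.8 to 12.2 and 14.04 to 15.7. The cause of these shifts was not tested. No paired analysis was possible because there is 1 group. Sequencing depth is unknown, so a missing summit does not show that a promoter was unbound.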
